A study of Mus musculus with 7 samples.

Results

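The immunoglobulin genes were examined in islet RNA of second-generation (F2) male mice, in 1 control-F2 sample and 1 AE-F2 sample, each sequenced as 1 library. These genes encode the heavy chain and the kappa and lambda light chains of antibodies. Members were defined by their GENCODE M21 gene type (V, D, J and C genes, without pseudogenes), which gave 268 of the 21899 genes in the files. They were singled out because an earlier look at these libraries had shown large differences between them, so every AE-F2 to control-F2 difference below is a description. The groups trace back to F0 dams of the C57BL/6J strain that were injected in late pregnancy with dihydrotestosterone in corn oil and benzyl benzoate (AE, androgen exposure) or with these solvents alone (control). Their F1 sons, exposed in the womb only, were mated with unrelated wild-type females to give the F2 males. Islets were isolated with collagenase and a density gradient, picked by hand and cultured. The age of the F2 males behind the libraries was not given in the sources used here, nor whether a library holds islets of 1 animal or of several. The sample labels name 3 libraries Ctrl and 4 HA, read here as control-F2 and AE-F2. Of these, control-F2 replicate 1 and AE-F2 replicate 4 were analysed here. No file of the other 5 was used here, and they were not analysed.

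In a B cell, V, D and J segments of the heavy chain locus, and V and J segments of a light chain locus, are joined in the DNA before the gene can be read as an antibody. The joined segment is spliced to a constant (C) gene, and the C gene sets the isotype, such as IgM, IgD, IgG or IgA. Each B cell clone carries 1 productive heavy chain and usually 1 light chain, so the mix of V segments reflects how many clones were present and how much RNA each of them held. Plasma cells, which secrete antibody, hold far more of this RNA than resting B cells. Endocrine islet cells do not rearrange these loci.

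The unit throughout is the estimated count per gene, as deposited, without scaling for depth or gene length. CPM is a count scaled to library size with TMM factors. The libraries held 16285888 (control-F2) and 21278513 (AE-F2) counts, and the insulin genes Ins1 and Ins2 took 17.7% and 17.5% of them. With 1 library per group there is no replicate spread, no test was possible and no p-value was computed. The intervals on ratios are 95% exact (Clopper-Pearson) intervals, and those on shares are 95% Wilson intervals. They cover counting error only and compare these libraries, not the conditions. Where the control-F2 sample had 0 counts, the ratio was taken against 3 counts in that library and is given as a lower bound. That bound carries no counting error, and the lower end of the exact interval lies below it (30.2 against 37.6 for the lambda locus). The share that a count of 0 allows is likewise 3 counts of the total. In bulk RNA, more cells of a type and more RNA per cell cannot be told apart.

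All loci had far more counts in the AE-F2 sample. The heavy chain locus (IGH, chromosome 12, 146 genes) had 52 counts in the control-F2 sample and 6212 in the AE-F2 sample, 91.7-fold higher once scaled (interval 69.8 to 123). The kappa locus (IGK, chromosome 6, 108 genes) had 11 and 2811 counts, 196-fold higher (109 to 393). The lambda locus (IGL, chromosome 16, 12 genes) had 0 and 147 counts, at least 37.6-fold higher. The remaining 2 genes, Gm17472 and Gm20730, are annotated as immunoglobulin genes on chromosome 6 outside the kappa locus and had 0 counts in both libraries. Immunoglobulin genes thus took 0.000387% of all counts in the control-F2 sample, against 0.0431% in the other. Within the AE-F2 sample, IGH held 67.7% of the immunoglobulin counts (66.8 to 68.7), IGK 30.7% (29.7 to 31.6) and IGL 1.60% (1.37 to 1.88). In the control-F2 sample, IGH held 82.5% of 63 counts (71.4 to 90.0) and IGK 17.5% of them. The heavy chain share was therefore the larger in the control-F2 sample, with intervals that do not overlap.

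Of the 268 genes, 107 had counts in the AE-F2 sample and 5 in the control-F2 sample, and 160 had 0 counts in both. Only 23 had a mean of at least 10 counts over both libraries, and all 23 were higher in the AE-F2 sample by 2-fold or more. Over all genes with such a mean, 3.16% were at least 2-fold higher (430 of 13627) and 0.653% at least 2-fold lower (89). All but Ighm had too few control-F2 counts to reach the minimum without their AE-F2 counts, so the number that was higher follows largely from the minimum and supports nothing. Among genes with at least 20 control-F2 counts, a limit set after seeing the data and met on that side alone, 0.544% were at least 2-fold higher (68 of 12496), Ighm among them as the only member. The lowest mean above the minimum was 11, shared by Igha, Igkv3-4 and Iglc1 with 0 and 22 counts each. The member with the highest mean below it was Igkv4-55 (mean 8).

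IgM was the isotype of nearly all heavy chain constant counts. Ighm, which encodes the constant part of the IgM heavy chain, had 51 counts in the control-F2 sample and 5376 in the AE-F2 sample, 80.9-fold higher (61.4 to 109). In the AE-F2 sample it held 96.0% of the counts on heavy chain constant genes (95.5 to 96.5). Ighd, the IgD constant gene that mature B cells express beside Ighm, had 0 and 100 counts, at least 25.6-fold higher, and 1.79% of these counts (1.47 to 2.17). The class-switched isotypes, which arise when a B cell replaces Ighm by another C gene, had 122 counts together in the AE-F2 sample, or 2.18% (1.83 to 2.60). Among them Ighg3 had 64 counts, Ighg2b 25, Igha 22, Ighg2c 9 and Ighg1 2. Ighe, the IgE gene, had 0 of 5598 counts, which allows a share of up to 0.0536%. In the control-F2 sample these 7 isotypes other than IgM all had 0 of 51 counts, which allows a share of up to 5.88% each and so could not have shown the AE-F2 shares. The deposited values are per gene and do not separate the membrane form of Ighm from the secreted form.

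**Figure D1:**
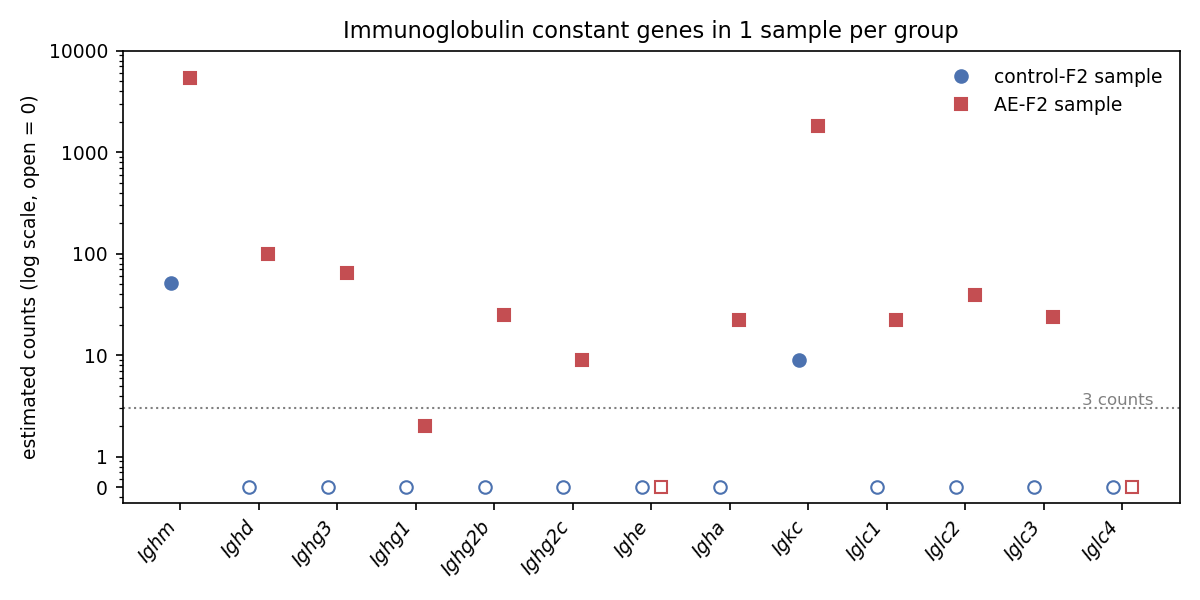
Estimated counts (log scale) of the 13 immunoglobulin constant genes in the control-F2 sample (circles) and the AE-F2 sample (squares), 1 library per group, with open symbols for 0 counts and a dotted line at 3 counts. In the AE-F2 sample Ighm (5376) and Igkc (1820) lie above all other constant genes, and in the control-F2 sample only these genes have counts (51 and 9).

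Among light chains, kappa prevailed. Igkc, the only kappa constant gene, had 9 counts in the control-F2 sample and 1820 in the AE-F2 sample, 155-fold higher (81.6 to 340). It held 95.5% of the light chain constant counts of the AE-F2 sample (94.5 to 96.4). The lambda constant genes had 0 counts in the control-F2 sample, and in the AE-F2 sample Iglc2 had 39, Iglc3 24, Iglc1 22 and Iglc4 0. Lambda counts were thus spread over 3 C genes, with shares of 45.9% (35.7 to 56.4), 28.2% (19.8 to 38.6) and 25.9% (17.8 to 36.1). Per kilobase of annotated exons, Igkc had 161 CPM and Ighm 134 CPM in the AE-F2 sample, which placed them at rank 112 and rank 152 of the 13627 genes averaging 10 counts or more. In the control-F2 sample Igkc (1.04 CPM per kilobase) was at rank 10837 and Ighm (1.66) at rank 9968. Igkc thus lay above Ighm per kilobase in the AE-F2 sample and below it in the control-F2 sample. As a share of the counts on both genes, Igkc had 15.0% in the control-F2 sample (8.10 to 26.1) and 25.3% in the AE-F2 sample (24.3 to 26.3), and these intervals overlap.

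V segments, which encode most of the antigen-binding part of a chain, had 3 counts in the control-F2 sample and 1667 in the AE-F2 sample. This was a 426-fold difference with a wide interval (146 to 2070), because the control-F2 counts were so few. The C genes had 60 and 7503 counts, 96.0-fold higher (74.5 to 126). V segments made up 4.76% of the immunoglobulin counts in the control-F2 sample (1.63 to 13.1) and 18.2% in the AE-F2 sample (17.4 to 19.0). In the AE-F2 sample 96 of the 218 V segments had counts, and 35 had more than 3. By locus these were 45 of 113 heavy chain segments with counts, 48 of 102 kappa segments and 3 of 3 lambda segments.

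A few V segments held most of these counts. Igkv10-96 had 412 counts in the AE-F2 sample, Igkv3-2 309, Ighv14-3 252 and Ighv1-82 134, and all had 0 in the control-F2 sample. They were at least 105-fold, 79.0-fold, 64.5-fold and 34.3-fold higher. Together they held 66.4% of the V counts of the AE-F2 sample (64.1 to 68.6). Their coding V exons, which show what tells each segment from its closest relative, follow as GENCODE M21 transcript sequence on GRCm38. Coordinates are those of this annotation, since the genome build behind the counts was not given in the sources used here. Igkv10-96 is on the minus strand at chr6:68631963-68632260, Igkv3-2 on the plus strand at chr6:70698768-70699067, Ighv14-3 on the minus strand at chr12:114059845-114060144 and Ighv1-82 on the minus strand at chr12:115952538-115952837. Each stretch lies in exon 2 of 2 of its gene and is read 5′ to 3′ on the coding strand, cut to the last 300 bases of the exon where it is longer. Capitals mark bases that differ from the most similar other V segment of the same locus, or have no partner in it.
Igkv10-96: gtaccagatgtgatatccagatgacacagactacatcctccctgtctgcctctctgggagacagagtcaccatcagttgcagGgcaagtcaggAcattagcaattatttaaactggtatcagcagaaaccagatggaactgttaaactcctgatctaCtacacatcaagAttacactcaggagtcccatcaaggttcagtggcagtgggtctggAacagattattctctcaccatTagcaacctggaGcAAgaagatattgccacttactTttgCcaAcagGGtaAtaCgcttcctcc
Igkv3-2: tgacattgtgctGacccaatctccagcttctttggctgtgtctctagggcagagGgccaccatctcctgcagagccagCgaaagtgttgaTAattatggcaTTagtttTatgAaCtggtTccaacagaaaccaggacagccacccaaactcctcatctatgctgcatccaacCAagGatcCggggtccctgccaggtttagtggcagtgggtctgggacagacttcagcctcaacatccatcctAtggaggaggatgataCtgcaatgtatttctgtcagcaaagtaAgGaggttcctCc
Ighv14-3: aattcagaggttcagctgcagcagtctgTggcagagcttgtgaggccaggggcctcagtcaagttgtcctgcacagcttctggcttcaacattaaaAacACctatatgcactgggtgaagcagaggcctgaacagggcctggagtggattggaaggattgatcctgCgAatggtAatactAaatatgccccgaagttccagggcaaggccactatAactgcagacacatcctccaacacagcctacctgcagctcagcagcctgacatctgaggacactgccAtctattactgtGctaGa
Ighv1-82: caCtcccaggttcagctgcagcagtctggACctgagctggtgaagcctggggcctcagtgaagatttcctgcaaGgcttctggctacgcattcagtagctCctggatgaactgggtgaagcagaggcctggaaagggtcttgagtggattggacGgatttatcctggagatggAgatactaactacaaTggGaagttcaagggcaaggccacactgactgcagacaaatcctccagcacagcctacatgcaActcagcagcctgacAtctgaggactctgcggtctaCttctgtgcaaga

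Within these stretches the capitals are the places where a read can tell a segment from its closest relative. Igkv10-96 differed from Igkv10-94 at 16 positions of the aligned exon (94.6% identity) and Igkv3-2 from Igkv3-1 at 22 (92.9%). Of these 22, 20 are marked as capitals in the stretch printed. Ighv14-3 differed from Ighv14-1 at 12 positions (96.1%) and Ighv1-82 from Ighv1-80 at 12 (96.1%). The relatives had few counts in the AE-F2 sample, with 1 for Igkv10-94, 0 for Igkv3-1, 0 for Ighv14-1 and 10 for Ighv1-80. Of all words of 50 bases in the transcript, 67.4% occurred in no other gene's GENCODE M21 transcripts for Igkv10-96, 78.7% for Igkv3-2, 79.1% for Ighv14-3 and 85.2% for Ighv1-82, counting both strands. Ighm, Ighd, Igha, Igkc and Iglc1 shared no such word, whereas 22.3% of the words of Iglc3 and 7.65% of those of Iglc2 recurred elsewhere, so the split among lambda C genes is less certain. Only 2 immunoglobulin genes had an estimated count that was not whole, Igkv10-96 (411.96) and Igkv10-94 (1.04).

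The 6 next most abundant V segments had between 28 and 54 counts in the AE-F2 sample. Iglv1 had 54 counts, Ighv1-42 36, Ighv11-2 33, Igkv14-100 33, Ighv5-4 28 and Igkv14-126 28. Of these only Ighv5-4 had a count in the control-F2 sample, where it had 1, a ratio of 21.5 with an interval from 3.55 to 879. Ighv11-2 and Igkv14-126 are known as the heavy and light chain segments of an antibody to phosphatidylcholine that B-1 cells make. Ighv11-2 differed from Ighv11-1 at only 4 positions (98.7% identity) and 61.4% of its 50-base words were its own, yet Ighv11-1 had 0 counts. Igkv14-126 shared no word with another gene. The 10 most abundant segments held 79.1% of the V counts (77.1 to 81.0), and the other segments 348 counts in all.

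**Figure D2:**
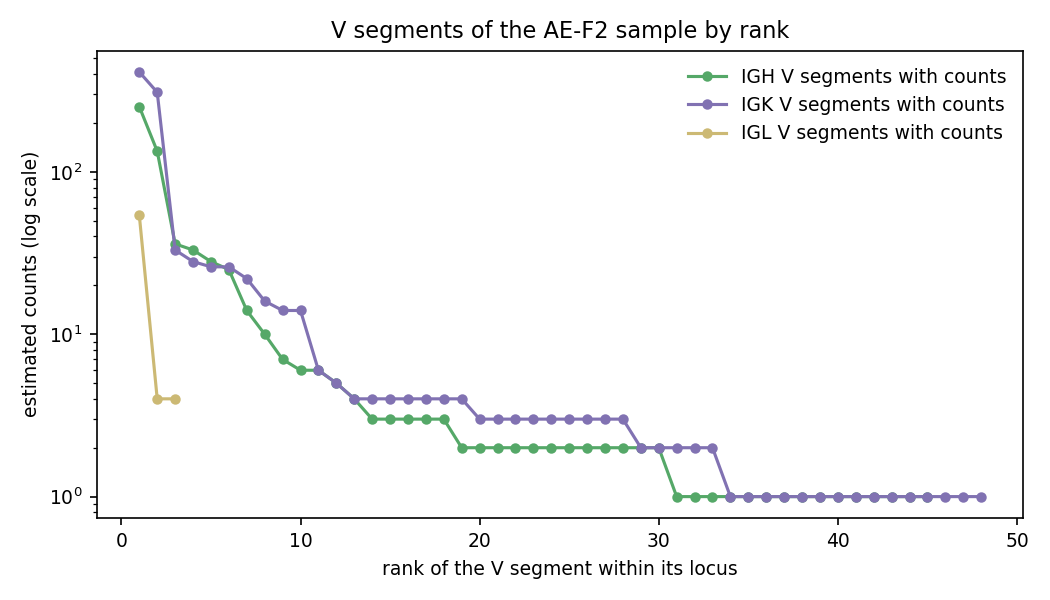
Estimated counts (log scale) of the V segments with counts in the AE-F2 sample against their rank within the heavy chain (IGH), kappa (IGK) and lambda (IGL) loci, 1 point per segment. In IGH and IGK the first 2 segments stand above the rest (252 and 134, and 412 and 309), and the third has 36 or 33 counts.

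The leading segment held a like share of the V counts in the heavy and kappa loci. In IGH, Ighv14-3 alone held 41.0% of 614 V counts (interval 37.2 to 45.0), and in IGK, Igkv10-96 alone held 41.6% of 991 (38.5 to 44.7). The first 3 segments held 68.7% of the heavy chain V counts (65.0 to 72.3) and 76.1% of the kappa V counts (73.3 to 78.6), so kappa was the more uneven by this measure. In each locus the first 2 segments were enough to reach more than 50% of the V counts. The effective number of segments (the inverse of the summed squared shares) was 4.39 in IGH, 3.64 in IGK and 1.30 in IGL. Iglv1 held 87.1% of the 62 lambda V counts (76.6 to 93.3), with 4 counts each for Iglv2 and Iglv3.

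By subgroup of similar V segments, 2 heavy chain subgroups tied at 260 counts. In Ighv14, which has 4 listed segments, 252 of the 260 counts lay on Ighv14-3. In Ighv1, the largest subgroup with 53 listed segments, 23 segments had counts, and 126 of the 260 counts lay outside Ighv1-82. The kappa subgroups Igkv10 (413 counts) and Igkv3 (341) were likewise carried by 1 segment each, with 1 and 32 counts outside it. In Igkv4, 82 counts lay on 10 of 26 segments, with 26 as the highest. High counts thus lay on single segments in 3 of these subgroups and were shared in Ighv1 and Igkv4.

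**Figure D3:**
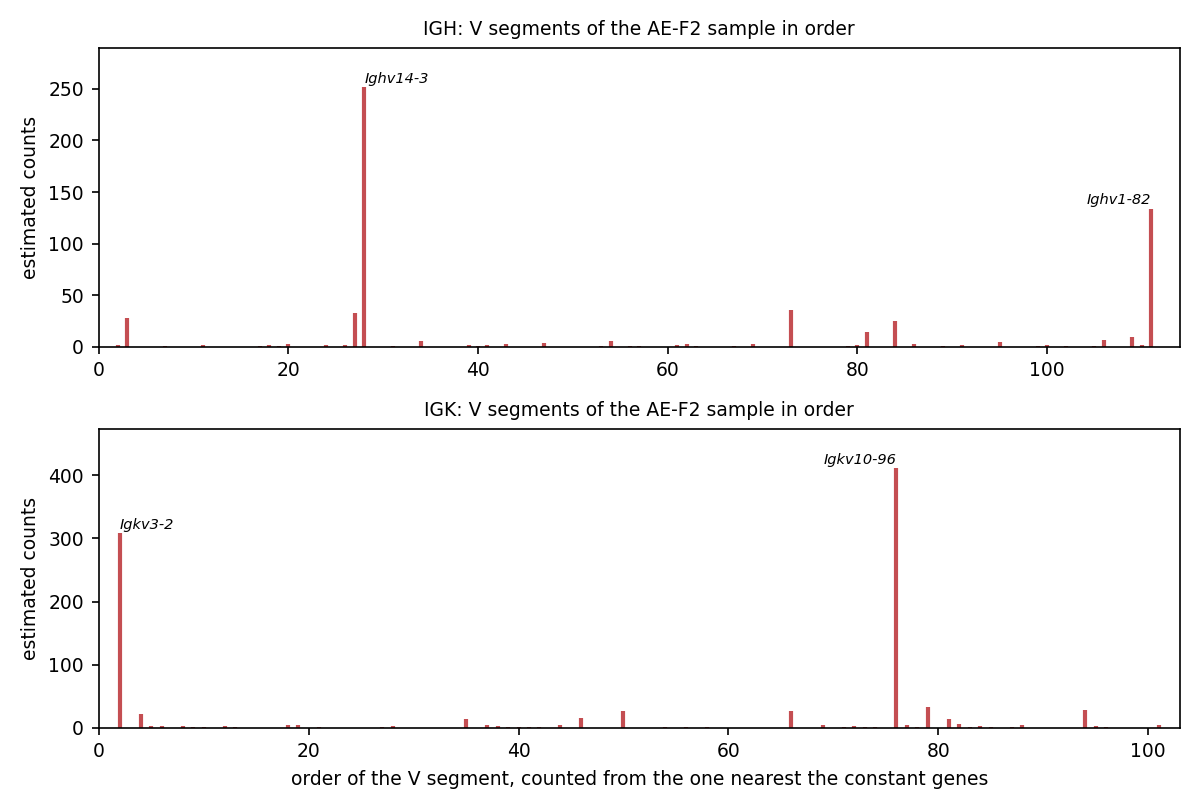
Estimated counts of each V segment in the AE-F2 sample in the order of the segments along the heavy chain (top) and kappa (bottom) loci, numbered from the segment nearest the constant genes. The tallest bars of each locus lie far apart, with Ighv14-3 at 28 and Ighv1-82 at 111 of 113, and Igkv3-2 at 2 and Igkv10-96 at 76 of 102.

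Counts came from the whole length of both loci. Numbering V segments from the one nearest the constant genes, Igkv3-2 was number 2 of 102 kappa segments and Igkv10-96 number 76. In IGH, Ighv11-2 and Ighv14-3 were neighbours at numbers 27 and 28 of 113, whereas Ighv1-82 was number 111, near the far end. The 56 heavy chain segments nearest the constant genes held 58.0% of the heavy chain V counts (54.0 to 61.8), with 22 of them counted, and 23 of the more distant segments were counted. The 51 nearest kappa segments held 43.7% of the kappa V counts (40.6 to 46.8), with 24 counted, against 24 of the more distant ones.

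No D or J segment had a count in either library. The 19 D segments are annotated with 10 to 29 bases and the 14 J segments with 38 to 100, and in an antibody transcript they are read only as joined to a V segment. Their zeros give no information on rearrangement. The 4 genes of the type IG_LV, Ighv5-8, Ighv1-13, Gm17472 and Gm20730, also had 0 counts in both libraries. Per kilobase, summed V counts came to 53.1% of summed C counts in IGH, 79.0% in IGK and 96.5% in IGL. The C genes of both light chain loci together came to 169 CPM per kilobase against 139 for the heavy chain C genes.

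The control-F2 sample was not free of immunoglobulin RNA. Its 63 counts lay on Ighm (51), Igkc (9) and, with 1 count each, the V segments Ighv5-4, Igkv1-135 and Igkv4-69. Igkv4-69 had 0 counts in the AE-F2 sample, and Igkv1-135 had 4, a ratio of 3.07 with an interval from 0.304 to 151. None of the 4 segments that led in the AE-F2 sample was counted in the control-F2 sample. With 3 V counts, the control-F2 sample cannot show whether its V segments were as unevenly used as those of the AE-F2 sample.

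B cell genes moved with the immunoglobulin genes, and their part in the result was not tested. Each of 12 B cell markers had more CPM in the AE-F2 sample, with a counting interval above 1. Over all 13627 genes averaging 10 counts or more, 13.4% had an interval above 1 (1827) and 13.4% below 1 (1825), and the interval narrows as counts rise. Of the 12 markers, 10 of the 11 that averaged 10 counts or more were at least 2-fold higher (background 3.16%). These 10 had at most 3 control-F2 counts each and reached the minimum through the AE-F2 sample, so that number supports nothing, and the eleventh, Cd79a, was not 2-fold higher. The summed counts of the 12 were 191 and 1127, a ratio of 4.53 (3.88 to 5.31), and 178 and 391 of these were Cd79a. Without Cd79a, a choice made after seeing the data, the other 11 had 13 and 736 counts, 43.4-fold higher (25.3 to 82.0). Ms4a1 (CD20) had 3 and 150 counts, Cd22 3 and 108, and Cd79b, the other signalling chain of the B cell receptor, 2 and 94. Cr2, Blk, Bank1, Fcmr and Cxcr5 had 0 counts in the control-F2 sample and 16 to 61 in the AE-F2 sample. The median log2 ratio of the 11 past the minimum, which is subject to the same limit, was 5.04, or 3.96 with genes at 0 taken at their bound, against 0.00024 over all genes.

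**Figure D4:**
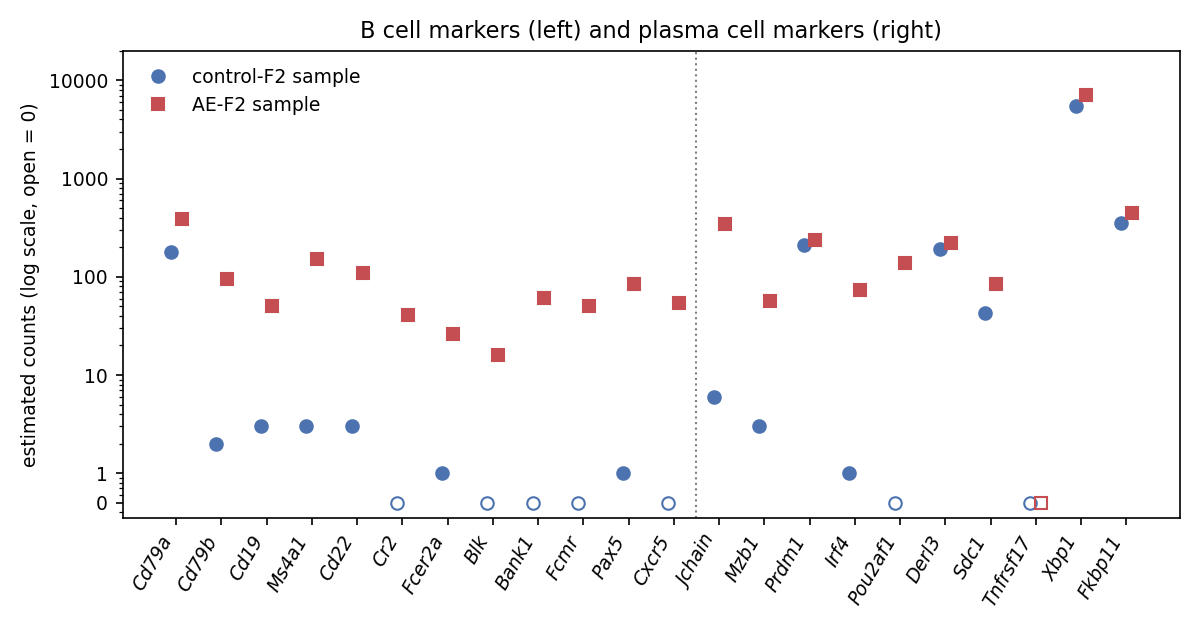
Estimated counts (log scale) of 12 B cell markers (left of the dotted line) and 10 plasma cell markers (right) in the control-F2 sample (circles) and the AE-F2 sample (squares), with open symbols for 0 counts. All B cell markers but Cd79a have 3 counts or fewer in the control-F2 sample, whereas the counts of Xbp1, Prdm1, Derl3 and Fkbp11 in the samples lie close together.

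Among 10 plasma cell markers, 4 of the 9 that averaged 10 counts or more were at least 2-fold higher (background 3.16%). These were Jchain, Mzb1, Irf4 and Pou2af1, which reached the minimum only with their AE-F2 counts, and 0 of the 5 with at least 20 control-F2 counts were 2-fold higher. Jchain, which joins IgM and IgA into polymers, had 6 and 347 counts, 44.4-fold higher (20.2 to 122). Mzb1, an endoplasmic reticulum protein that helps IgM assembly, had 3 and 57 counts. Xbp1 (5462 and 7076 counts), Fkbp11 (356 and 442), Prdm1 (209 and 236) and Derl3 (191 and 221), which were also abundant in the control-F2 sample, had counting intervals that included 1. Sdc1 (CD138), a surface proteoglycan of plasma cells and epithelia, had 43 and 85 counts, 1.52-fold higher (1.04 to 2.24). Tnfrsf17 (BCMA), a plasma cell receptor, had 0 counts in both libraries. The median log2 ratio of the 9 was 0.59. In the wider list of 12 genes for antibody assembly and secretion, Jchain and Mzb1 were at least 2-fold higher (background 3.16%), and 0 of the other 10, which all had at least 20 control-F2 counts, were. Hspa5 (BiP), the chaperone that holds unpaired heavy chains and also serves insulin-secreting cells, had 28492 and 34787 counts, a ratio of 0.937 (0.922 to 0.952).

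The B cell receptor works through Cd79a and Cd79b and a chain of kinases and adaptors. Of 17 listed genes of this complex and its signalling, 9 of the 16 that averaged 10 counts or more were at least 2-fold higher (background 3.16%) and 0 lower (background 0.653%), with a median log2 ratio of 1.36. Of the 8 with at least 20 control-F2 counts, 1 was, the kinase Syk (background 0.544%). Syk had 47 and 166 counts, 2.71-fold higher (1.95 to 3.83), and the adaptor Blnk 12 and 59. The most abundant members, Cd81 (808 and 1159 counts) and Ptpn6 (595 and 809), which other cells also express, had ratios of 1.10 (1.01 to 1.21) and 1.04 (0.937 to 1.16).

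Of 13 transcription factors that act on immunoglobulin loci, 8 were at least 2-fold higher (background 3.16%), and the median log2 ratio was 1.77. Of the 6 with at least 20 control-F2 counts, 1 was, Irf8 with 34 and 153 counts (background 0.544%), and the other 7 that were higher had fewer than 20. Pou2af1, the B cell coactivator of octamer-binding factors, had 0 and 139 counts, at least 35.6-fold higher. Pax5, which holds B cell identity, had 1 and 85 counts, and Irf4, which drives plasma cell fate, 1 and 74. The widely expressed factors Tcf3 (618 and 777 counts) and Pou2f1 (414 and 655) had ratios of 0.965 (0.867 to 1.07) and 1.21 (1.07 to 1.38).

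Genes of ongoing rearrangement were near or at 0. Rag1, Rag2 and Dntt, which cut and extend the segments in developing lymphocytes, had 0 counts in both libraries. Of the surrogate light chain genes of pre-B cells, Vpreb1 had 1 and Vpreb3 2 counts in the AE-F2 sample, and Vpreb2 and Igll1 had 0. The general repair genes of the list, Prkdc, Lig4, Xrcc4 and Dclre1c, had 116 to 458 counts in the control-F2 sample and intervals that included 1.

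Receptors that bind or carry antibody gave a mixed picture. Of 11 listed genes, 8 had a mean of at least 10 counts, of which Fcmr and Fcer2a, both near 0 in the control-F2 sample, were at least 2-fold higher (background 3.16%), and 0 of the 5 with at least 20 control-F2 counts were. Fcmr, the IgM receptor, had 0 and 51 counts, and Fcer2a, the low-affinity IgE receptor of B cells, 1 and 26. Pigr, which carries IgA and IgM across epithelia, had 174 and 349 counts, 1.54-fold higher (1.28 to 1.86). Fcgrt, the neonatal Fc receptor, had 64 and 128, also 1.53-fold higher (1.13 to 2.11). The Fcγ receptor genes Fcgr1 (10 and 9 counts), Fcgr3 (37 and 53) and Fcgr4 (9 and 18) had intervals that included 1, and Fcer1a had 0 counts in both.

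**Figure D5:**
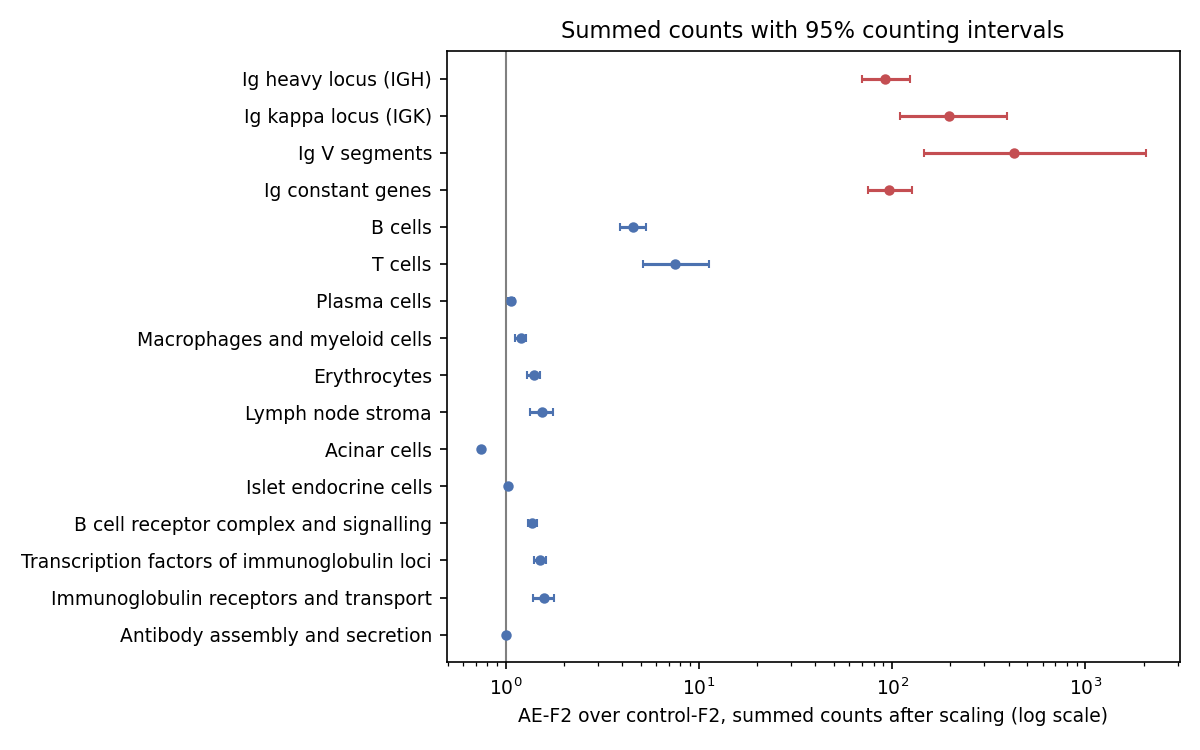
Ratio of summed counts, AE-F2 over control-F2 after scaling (log scale), with 95% counting intervals, for immunoglobulin sums (red) and listed gene groups (blue), 1 library per group. The 4 immunoglobulin sums drawn lie at 91.7-fold (IGH) or above (IGL, known only as at least 37.6-fold, is not drawn), the B cell list at 4.53-fold, the T cell list above it, and the other lists between 0.745-fold and 1.57-fold.

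The part that markers of other cells had in the result was not tested either. The 12 T cell markers had 30 and 293 counts, 7.50-fold higher (5.14 to 11.3). Lck had 7 and 62, Cd2 4 and 47, Cd4 1 and 38, Trac 5 and 36, and Cd247 6 and 35. These 5 averaged 10 counts or more only through their AE-F2 counts. Cd3d had 0 and 5 counts, Cd3e and Cd3g 0 and 10 each, and Cd8a 5 and 11. The intervals of Cd3d and Cd8a included 1, and those of the other 10 markers lay above 1 (background 13.4%). The 10 macrophage and myeloid markers had 1367 and 2124 counts, 1.19-fold higher (1.11 to 1.28), and of these only Lyz2 (112 and 571) was at least 2-fold higher (background 3.16%). Without Lyz2, a choice made after seeing the data, the other 9 had 1255 and 1553 counts, a ratio of 0.95 (0.881 to 1.02), and C1qa (592 and 647) was lower (0.839, 0.749 to 0.939). The erythrocyte list was 1.39-fold higher (1.29 to 1.51). The lymph node stroma list was 1.53-fold higher (1.33 to 1.76), with Cxcl13 at 5 and 123 counts, Ccl19 at 6 and 69, Lyve1 at 292 and 407, Ccl21a at 0 and 6, Madcam1 at 0 and 1, and Glycam1 and Chst4 at 0 in both. Without Lyve1, a choice made after seeing the data, the other 7 stroma genes had 15 and 205 counts, 10.5-fold higher (6.21 to 19.1). All 8 acinar markers had intervals below 1 (background 13.4%), with 33704 and 32700 counts in all, a ratio of 0.745 (0.733 to 0.756), and 0 of them were 2-fold lower. The 10 islet endocrine markers, whose counts are mostly insulin, came to a ratio of 1.03 (1.029 to 1.032). Their ratios ran from 0.824 (Slc2a2) and 0.834 (Nkx6-1) to 1.37 (Gcg), and none differed by 2-fold. At counts this high even small differences give intervals away from 1, and 3 of the 10 had one above 1 and 5 one below, against 13.4% of all genes each way.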

How the data were processed

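Islet mRNA was enriched with oligo(dT) and sequenced on an Illumina instrument. According to the methods, filtered reads were aligned with HISAT2, whereas the submitters' processing notes name Bowtie2, RSEM and DESeq2, with no role given. The authors summarised the reads of each library as estimated counts per gene, not scaled, and the deposited files of 2 of the 7 labelled libraries were used here. Genome build and annotation were not given in the sources used here. GENCODE M21 (GRCm38) supplied symbols (for 21806 of 21899 identifiers), gene types, exon lengths and sequences.

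Counts were rounded, and libraries were scaled with TMM factors (edgeR 4.0.16, R 4.3.3) over genes averaging 10 counts or more. Past 2-fold was judged with a pseudocount of 0.5. Words of 50 bases were searched in all transcripts. The calculations were tested on simulated counts of abundant genes only. Genes with few or no counts in the control-F2 sample were not covered. Alternatives were other scalings (DESeq2 1.42.0 among them), minimum counts, thresholds, pseudocounts and subsets of genes.

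Members, lists and the rule for named genes were chosen with earlier results of these data known. The rule named all C genes, the 10 V segments and the 3 T cell receptor genes with the most counts, members with over 3 counts in the control-F2 sample, and, for each list, up to 4 abundant members and defining members at 0. Other genes named were chosen after their values were seen. Some genes of the lists are not reported here.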

Additional observations from a re-analysis of the deposited data

How the results depend on the processing

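Of 39 alternatives, 31 left the value within its counting or sampling interval, or the count within 1.5 times, and 8 moved it. Ratios of the immunoglobulin, IGH, IGK, IGL, V and C sums stayed within their intervals under library totals, DESeq2 factors, totals without the 10 most abundant genes and unrounded counts. The immunoglobulin ratio of 112 became 243 without Ighm and 426 with V, D and J genes alone, where the control-F2 sample had 3 counts. The share of the first 3 V segments, 58.4%, was 60.8% by subgroup, 55.4% over whole estimated counts only (which leaves out Igkv10-96), 68.7% in heavy chain V alone and 76.1% in kappa V alone. Immunoglobulin genes at least 2-fold higher numbered 77 with a mean of at least 1 count and 7 with at least 50, against 23. Other numbers of genes were considered at these minimums, and the shares over all genes there were not computed. Members passed largely through their AE-F2 counts, so these numbers support nothing. IG pseudogenes could not be added, since none is among the listed genes analysed here. Leaving out a replicate was not possible with 1 library per group. No paired analysis was possible, since each group had 1 library and no source used here pairs a control-F2 with an AE-F2 library. Depth limits the control-F2 side, where all ratios rest on 63 immunoglobulin counts or fewer.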

Other observations

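T cell receptor genes, the counterparts of the immunoglobulin genes in T cells, were also higher in the AE-F2 sample, at a much lower level. The 82 listed C, D and J genes had 5 counts in the control-F2 sample and 75 in the AE-F2 sample, 11.5-fold higher (counting interval 4.72 to 36.5), all on C genes. Trac, the alpha chain constant gene, had 5 and 36 counts, 5.53-fold higher (2.16 to 18.0), and Trbc2 and Trbc1, those of the beta chain, had 0 and 24 and 0 and 11 counts. Trdc of the delta chain had 3 counts and Tcrg-C4 of the gamma chain 1, both in the AE-F2 sample only. All other genes of this set had 0 counts in both. No test of the difference between immunoglobulin and T cell receptor genes was possible with 1 library per group.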
